A study of Mus musculus with 12 samples.

Results

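The subunit genes of the constitutive proteasome were followed in liver donor T cells of 3 genotypes. Members were the genes of the count table whose symbol begins with Psma, Psmb, Psmc, or Psmd and a number, leaving out the interferon-inducible subunits Psmb8, Psmb9, and Psmb10, and with at least 10 counts in every library. Of 25078 genes, 40 matched the pattern, 3 were left out by name, and 2 failed the minimum, so that 35 members remained. Psma8, an alpha subunit of germ cells, had 1 to 10 counts per library, and Psmb11, the beta subunit of the thymic cortex, had 1 read in 1 of 12 libraries. The members comprised 14 core genes (7 Psma and 7 Psmb) and 21 genes named for the regulatory particle (7 Psmc and 14 Psmd). Among the latter, Psmc3ip, Psmd5, Psmd9, and Psmd10 are not subunits of the finished particle.

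The T cells came from C57BL/6 donors and were sorted on day 6 after HCT as H-2Kb+TCRβ+CD4+ or CD8+ cells from the livers of lethally irradiated WT BALB/c recipients. All recipients were given TCD-BM from WT donors. The T cells were from WT donors, from STAT3-/- donors, in which CD4-Cre deletes the floxed Stat3 gene throughout the T cell lineage, or from STAT3-/-PD-1-/- donors, in which this deletion was crossed with a germline loss of PD-1. No group lacked PD-1 alone, so the loss of PD-1 could be examined only on the STAT3-/- background. Each of the 6 groups had 2 libraries, and each library pooled cells from 3 recipients, with the CD8+ T cells taken from the livers that gave the CD4+ T cells; the ages of the mice were not given in the sources used here. The p-values therefore measure the spread between pools, and CD4+ and CD8+ libraries are not independent of each other.

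The proteasome degrades proteins that carry ubiquitin chains. Its core is a barrel of alpha and beta rings, with some of the beta subunits doing the cutting, and the regulatory particle on its ends recognizes the chains, removes them, and uses a ring of ATPases to unfold the substrate and feed it in. In activated T cells the interferon-inducible subunits replace the constitutive cutting subunits and shape the peptides shown on MHC class I, and T cells that divide rapidly depend on proteasome activity to remove cell cycle proteins.

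Totals ranged from 21676125 to 24551477 counts per library, and the least abundant member, Psmc3ip, still had 109 counts in its lowest library. Levels between libraries are given below as CPM, the counts scaled to a common library size with TMM factors within a subset. Stat3 was measured at 362.2 and 465.6 CPM in the WT CD4+ libraries, 137.7 and 164.1 in STAT3-/-, and 156.6 and 221.5 in STAT3-/-PD-1-/-. In CD8+ libraries Stat3 was at 396.2 and 387.2, 148.1 and 136.5, and 154.3 and 238.5 CPM. Pdcd1, which encodes PD-1, was at 242.3 and 234.5 CPM in WT CD4+, 257.3 and 322.8 in STAT3-/-, and 55.1 and 26.3 in STAT3-/-PD-1-/- libraries; in CD8+ libraries the values were 375.2 and 309.7, 422 and 457.6, and 94 and 66.5 CPM. Stat3 was thus lower in every library labelled STAT3-/- than in any WT library, and Pdcd1 lower in every library labelled PD-1-/- than in the rest, although reads of both genes remained. In the edgeR fits, Stat3 fell against WT in STAT3-/-PD-1-/- CD4+ (log2 -1.13, adjusted p = 0.018) and CD8+ T cells (log2 -0.996, adjusted p = 0.0177). The CD4+ call was lost without either STAT3-/-PD-1-/- library or without WT replicate 2, with log2 -1.40 to -0.90 over all left-out libraries. In STAT3-/- T cells the larger change of Stat3 (log2 -1.46 in each subset) did not pass by edgeR (adjusted p = 0.055 and 0.108). Over 9 other settings its adjusted p ran from 1.99e-07 to 0.142, with 4 passing, and from 3.62e-09 to 0.184, with 3 passing. Cd4 and Cd8a separated the subsets, with a Cd4 log2 difference between WT CD8+ and CD4+ libraries of -10.95 and a Cd8a difference of 10.90. All 7 T cell markers (Cd3d, Cd3e, Cd3g, Cd2, Lck, Zap70, and Lat) were detected, with Lck the most abundant.

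Markers of other cells were low. The 10 hepatocyte genes summed to 0.81 to 2.91 CPM per library, led by Apoa2, and the 10 macrophage genes to 7.05 to 39.8 CPM, led by Cd68. The 5 B cell genes summed to 1.63 to 14.1 CPM, led by Cd79b, with Ms4a1 at 0 in all libraries. The globin genes were at 0 throughout, and the 5 erythroid genes reached at most 0.577 CPM. No gene of these lists passed in STAT3-/-PD-1-/- against WT in CD4+ T cells, with 2 hepatocyte, 1 B cell, and 8 macrophage genes tested. Both hepatocyte genes were higher (median log2 1.02, 1 separated upward). Apoa2 was at 0.48 and 0.38 CPM in WT and 0.75 and 0.79 in STAT3-/-PD-1-/- CD4+ libraries. In CD8+ libraries it was at 0.60 and 0.94 CPM in WT and 1.15 and 1.41 in STAT3-/-PD-1-/-. The CD4+ B cell sums were 2.05 and 2.41 CPM in WT and 1.95 and 1.71 in STAT3-/-PD-1-/-, and the macrophage sums 9.07 and 19.3 and 9.72 and 12.3. Of the 8 macrophage genes 7 were lower (median log2 -2.19) and 3 separated downward, whereas Cd68 was at log2 0.18. Without Cd68, the macrophage sums were 1.13 and 10.7 CPM in WT, 1.39 and 7.31 in STAT3-/-, and 0.932 and 1.49 in STAT3-/-PD-1-/- CD4+ libraries, and 0.98 and 10.4, 0.58 and 7.08, and 0.83 and 0.89 in CD8+ libraries, so that the second WT and STAT3-/- libraries stood above the rest in both subsets. CD8+ B cell sums were 14.1 and 10.9 CPM in WT, 12.1 and 13.8 in STAT3-/-, and 6.37 and 5.56 in STAT3-/-PD-1-/-, and those of macrophage genes were 28.8 and 39.8, 26.7 and 34.9, and 18.5 and 20.1. Both sums were thus lowest in the STAT3-/-PD-1-/- CD8+ pair, and the leading gene of each fell against WT: Cd79b, the 1 B cell gene tested (log2 -1.18, adjusted p = 0.0149, up to 0.0968 with 1 library left out), and Cd68 (log2 -0.71, adjusted p = 0.0154, up to 0.072), while all 8 macrophage genes tested were lower (median log2 -2.45). Cd79b alone made up 13.9 and 10.8 CPM of the CD8+ B cell sums in WT and 6.18 and 5.34 in STAT3-/-PD-1-/-. The other B cell genes were near 0 in both groups, so the fall of this sum was that of 1 gene. The part of other cells in the results below was not tested. In bulk RNA, fewer cells of a type and less RNA per cell cannot be told apart.

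Between genes, levels are compared per length, as the deposited RPKM. Psmb4, a structural beta subunit, was the most abundant member in WT CD4+ T cells at 228 ± 20 RPKM (SD, n = 2), and in WT CD8+ T cells at 263 ± 11. Psmb1 and Psma2 were near the top as well, at 204 ± 27 and 168 ± 18 RPKM in WT CD4+ T cells. At the other end, Psmc3ip was at 5.07 ± 0.06 and the alpha subunit Psma3 at 5.37 ± 1.01 RPKM in WT CD4+ T cells, a range of 45.0-fold from highest to lowest. In WT CD8+ T cells Psma3 was the lowest at 7.09 ± 0.71 RPKM, and the range was 37.1-fold. A gap divided the members in both subsets: 8 of them (Psmc3ip, Psma3, Psmd9, Psma5, Psmb5, Psmd10, Psmd5, and Psmd11) were at 25.9 RPKM or less in WT CD4+ T cells, whereas the other 27 were at 54.0 or more. The 4 genes that are not particle subunits had a median of 17.6 RPKM, against 101 for the core and 78.9 for the particle subunits among the Psmc and Psmd genes.

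**Figure D1:**
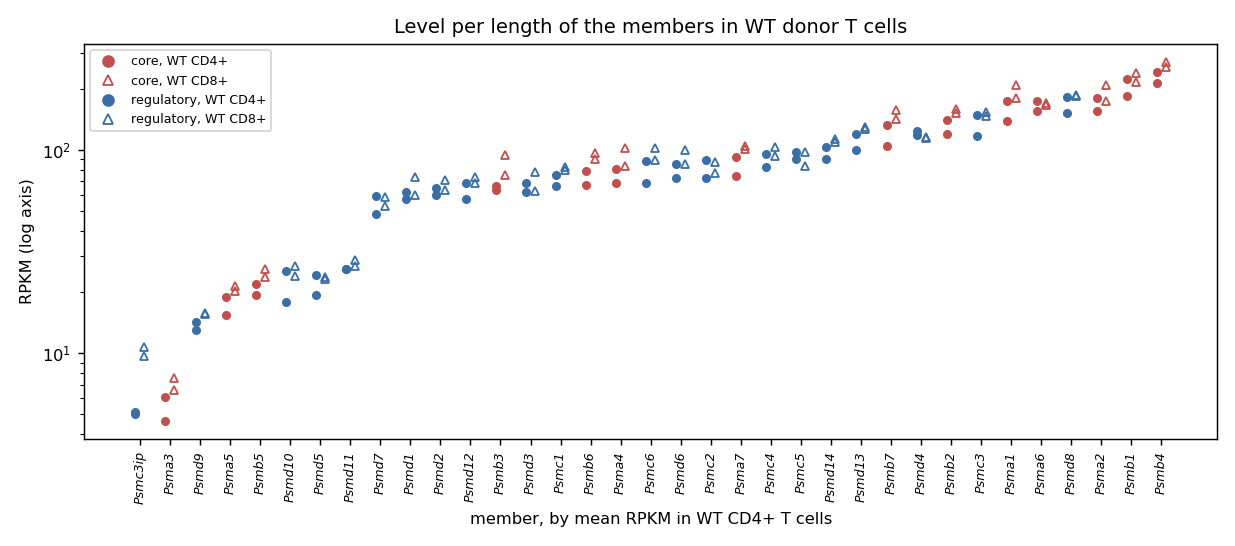
Level per length of each of the 35 members in WT libraries, as deposited RPKM on a log axis, with 1 point per library for CD4+ and CD8+ T cells. Psmb4 stands highest at a mean of 228 RPKM in CD4+ and 263 in CD8+ T cells, and 8 members lie apart at 25.9 RPKM or less in CD4+ T cells.

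Levels this far apart among Psma and Psmb genes were set beside how much of each gene can be told from others by its sequence. In GENCODE transcripts, 54.8% of the 51-base windows of Psma5, 53.2% of those of Psmb5, and 21.9% of those of Psma3 also occurred in a transcript of another gene, either strand; a read in such a window may not be assigned to 1 gene. Psmb3 shared 55.0% of its windows and was at 64.9 ± 1.7 RPKM in WT CD4+ T cells. Psmd9 and Psmd10 were at 13.6 and 21.6 RPKM, with 0.568% and 0% of windows shared. Of the 35 members, 16 shared no window, and 8 shared more than 20%. Psma3 overlaps 3110056K07Rik by 4263 bases on the other strand, and Psmd1 overlaps Htr2b by 12944 bases; whether counting used strand is not given in the sources used here. Htr2b itself had 1 count in 1 library. Levels of the 8 members over 20% are therefore uncertain against those of other members. These were Psma3, Psma4 (23.2%), Psma5, Psmb3, Psmb5, Psmb7 (27.9%), Psmc3ip, and Psmd2 (24.9%). The part of shared sequence in their levels was not tested. Comparisons of 1 gene between genotypes share the same annotation.

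RefSeq promoters (GRCm38.p6, 250 bases before to 50 after the start) were matched for 29 of 35 members. They are shown because most members lay on 1 side of WT in the comparisons that follow, and the 100 bases before the start are printed 5′ to 3′ on the gene's strand. Those of the members that passed the test in a genotype comparison come first, except Psma6, for which 2 starts are listed; capitals mark CCGGAAG, a core site of ETS factors, on either strand.
Psmd1 (chr1:86064519-86064618, + strand): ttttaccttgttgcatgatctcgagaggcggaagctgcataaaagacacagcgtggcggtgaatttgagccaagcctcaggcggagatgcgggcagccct
Psmd2 (chr16:20651552-20651651, + strand): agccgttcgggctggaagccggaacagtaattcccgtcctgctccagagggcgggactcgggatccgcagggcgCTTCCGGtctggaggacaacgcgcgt
Psmd6 (chr14:14120946-14121045, - strand): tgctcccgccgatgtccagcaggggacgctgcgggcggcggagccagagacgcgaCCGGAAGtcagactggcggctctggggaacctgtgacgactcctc
Psma7 (chr2:180042465-180042564, - strand): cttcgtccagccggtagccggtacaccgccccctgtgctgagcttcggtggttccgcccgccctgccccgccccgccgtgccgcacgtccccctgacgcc
Psmc3ip (chr11:101095436-101095535, - strand): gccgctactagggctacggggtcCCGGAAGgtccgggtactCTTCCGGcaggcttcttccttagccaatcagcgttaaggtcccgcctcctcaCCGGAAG

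The Psmc3ip stretch held the ETS letters 3 times, those of Psmd2 and Psmd6 once, and those of Psmd1 and Psma7 not at all. Over the whole promoter windows, CCGGAAG occurred in 11 of 29 members (37.9%), of which 1 was a core gene of 11 and 10 were Psmc or Psmd genes of 18. The share was 8.86% of all 32851 promoters and 21% of the 9771 genes tested here that had a promoter. Members and tested genes were counted once each, when any of their listed starts matched, so their shares are alike in kind. The next pair are promoters of cutting subunits, with capitals on TGACNNNGC, the antioxidant response element that NRF1 and NRF2 (encoded by Nfe2l1 and Nfe2l2) can bind.
Psmb5 (chr14:54617996-54618095, - strand): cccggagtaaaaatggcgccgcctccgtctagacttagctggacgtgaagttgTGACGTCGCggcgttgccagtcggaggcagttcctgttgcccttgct
Psmb6 (chr11:70525257-70525356, + strand): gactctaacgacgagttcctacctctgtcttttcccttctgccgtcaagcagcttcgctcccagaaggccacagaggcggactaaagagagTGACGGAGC

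TGACNNNGC, searched on both strands, occurred in 5 of 29 members (17.2%), namely Psmb5, Psmb6, Psmc6, Psmd9, and Psmd12, against 12.4% of all promoters and 17.1% of tested genes with a promoter. CCAAT was found in 12 members (41.4%) and in 43.4% of tested genes, and GGGCGG in 18 members (62.1%) and in 68.3% of tested genes. The palindrome of nuclear respiratory factor 1 (encoded by Nrf1), GCGC, a pair of any bases, and GCGC again, was found in 6 members (20.7%), in 6.23% of all promoters, and in 15.4% of tested genes with a promoter. These matches describe letters in a window; binding was not measured.

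Transcripts of the 35 members together took up a larger share of the counts when both STAT3 and PD-1 were absent. In CD4+ T cells the share was 0.425% and 0.378% of counts in the WT libraries, 0.416% and 0.339% in STAT3-/-, and 0.482% and 0.530% in STAT3-/-PD-1-/-. Of the CD8+ counts it was 0.439% and 0.474% in WT, 0.423% and 0.424% in STAT3-/-, and 0.543% and 0.572% in STAT3-/-PD-1-/-. In both subsets, the STAT3-/-PD-1-/- libraries lay above all others without overlap, whereas in CD4+ T cells the WT and STAT3-/- ranges overlapped. An exact permutation test of 2 against 2 libraries cannot give a two-sided p below 0.333, so the shares were not tested by themselves.

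**Figure D2:**
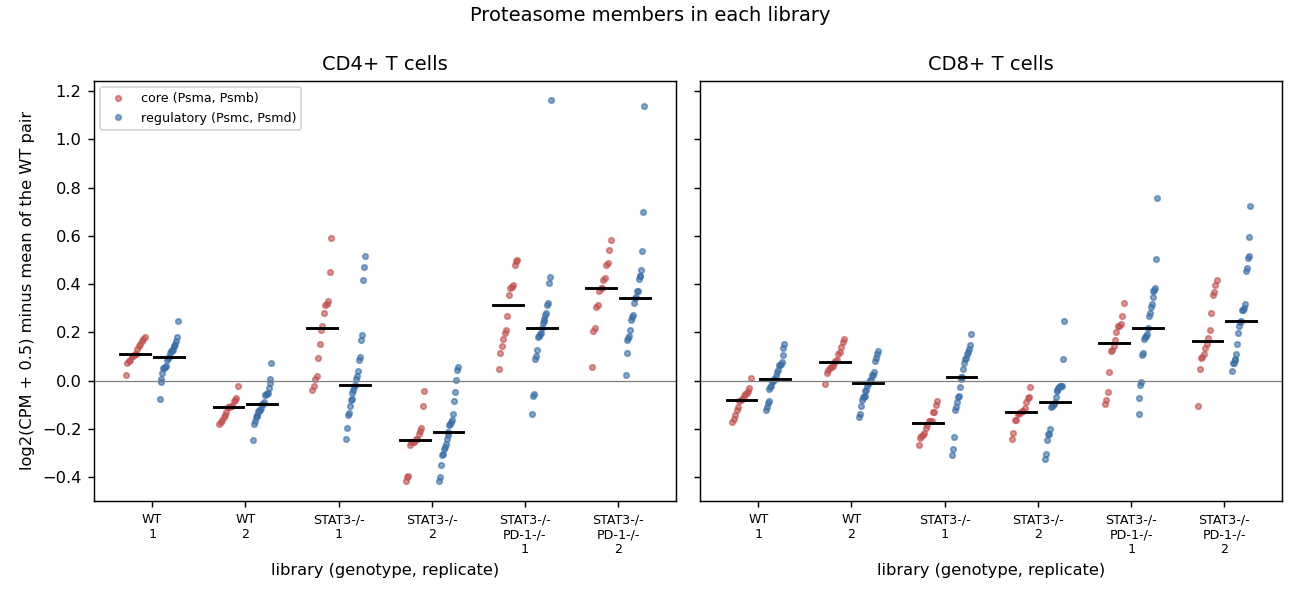
Level of each member in each library relative to the mean of the WT pair, on the log2(CPM + 0.5) scale, with core genes in red, Psmc and Psmd genes in blue, and a bar at each class median. The STAT3-/-PD-1-/- libraries have medians above 0 in both subsets, and the first STAT3-/- CD4+ library has a core median of 0.22 where the second has -0.25.

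The STAT3-/- and WT CD4+ pairs both spread between their replicates. For the core genes the medians relative to WT were 0.22 and -0.25 in STAT3-/- and 0.11 and -0.11 in WT CD4+ libraries. Over all members, the median relative to WT on the log2(CPM + 0.5) scale was 0.041 in replicate 1 and -0.24 in replicate 2, and the medians were 0.24 and 0.37 in the STAT3-/-PD-1-/- pair. Psmb7 was at 141.1 CPM in replicate 1 and 83.8 in replicate 2 of STAT3-/- CD4+ T cells, and Psmc6, an ATPase, at 166.5 and 96.9. The WT CD4+ pair lay at 0.11 and -0.11 around its own mean. The CD8+ pairs were closer, at -0.032 and 0.032 in WT, -0.099 and -0.11 in STAT3-/-, and 0.19 and 0.23 in STAT3-/-PD-1-/-.

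In CD4+ T cells, the comparison of STAT3-/-PD-1-/- with WT addressed the combined loss of STAT3 and PD-1. The fitted level was higher in 34 of 35 members, with a median log2 fold change of 0.32 against -0.011 over all 11959 genes tested. In 28 members both STAT3-/-PD-1-/- libraries lay above both WT libraries, and in none below; of all genes, 31% were separated upward and 28% downward. At an adjusted p of 0.05 in edgeR's quasi-likelihood fit, 1 member passed, where 12.9% of all genes did. The member was Psmc3ip, and no member known as a subunit of the particle passed.

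Psmd1, the largest scaffold subunit of the base, was at 197.4 and 183.6 CPM in WT CD4+, 187.9 and 153.6 in STAT3-/-, and 256.3 and 309.5 in STAT3-/-PD-1-/- libraries. The STAT3-/-PD-1-/- pair lay above the other 4 libraries, with a fold of 1.49 over WT (log2 0.57, SE 0.17, adjusted p = 0.0658). Leaving out either STAT3-/- library, which does not enter this difference but does enter the estimate of spread, brought the Psmd1 adjusted p under 0.05, to 0.047 at the lowest. It also passed by DESeq2 (adjusted p = 0.0259), in the fit of all 12 libraries (0.0476), and in that of the 4 libraries compared (0.0469), and not under the other scaling and filters or by limma (up to 0.0708). With the replicate number as a block, which no label says is shared, 4 members passed beside 26% of all genes: Psmc3ip, Psmd1 (adjusted p = 0.0252), Psma7 (0.0443), and Psmb6 (0.0479). Psmd2, the other large scaffold, which docks ubiquitin shuttles, was at 194.2 and 179.5 CPM in WT and at 213.7 and 256.8 in STAT3-/-PD-1-/-, again without overlap (log2 0.33, SE 0.15, adjusted p = 0.196). The alpha subunit Psma7 was at 143.8 and 116.7 CPM in WT and at 180.9 and 181.9 in STAT3-/-PD-1-/- (log2 0.48, SE 0.21, adjusted p = 0.186).

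Among CD8+ T cells, the fitted level in STAT3-/-PD-1-/- was higher than in WT in 31 of 35 members, with a median log2 fold change of 0.21 against -0.00062 over 12002 genes. Both STAT3-/-PD-1-/- libraries lay above both WT libraries in 22 members and below in none, where 30.8% of all genes were separated upward and 28.9% downward. Psmd1 and Psmd2 rose, and the 2 of 35 members passing compare with 17.2% of all genes. Psmd1 was at 235.2 and 194.3 CPM in WT, 227.5 and 183.6 in STAT3-/-, and 303.1 and 353.0 in STAT3-/-PD-1-/- CD8+ libraries, so that only the last pair stood clear (1.53-fold over WT, log2 0.61, SE 0.16, adjusted p = 0.0393). Psmd2 was at 212.4 and 193.0 CPM in WT and at 263.0 and 289.5 in STAT3-/-PD-1-/- libraries (1.36-fold, log2 0.45, SE 0.12, adjusted p = 0.0397). Leaving out 1 library at a time, Psmd1 lost its call in 3 of 6 fits, without either STAT3-/-PD-1-/- library or without WT replicate 2 (adjusted p = 0.0298 to 0.205 over the 6), and Psmd2 in all 6 (adjusted p = 0.0622 to 0.221). Psmd1 also lost it by limma on log2(RPKM + 1) (adjusted p = 0.0552), and Psmd2 in the fit of the 4 libraries compared (adjusted p = 0.0589).

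**Figure D3:**
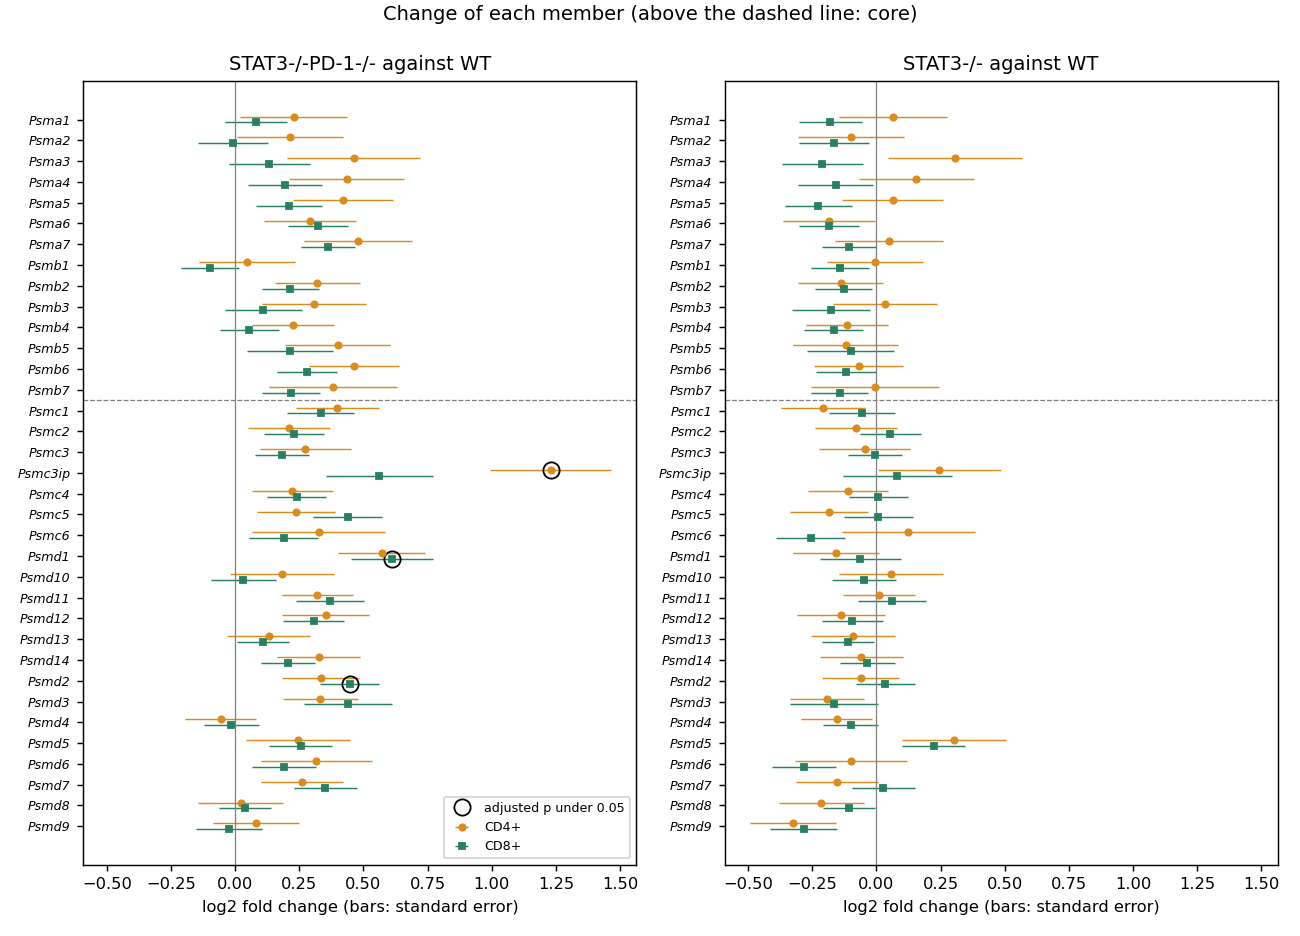
Log2 fold change of each of the 35 members against WT, with bars of 1 standard error, for STAT3-/-PD-1-/- (left) and STAT3-/- (right) T cells; circles mark an adjusted p under 0.05. On the left most points lie above 0 and 3 are circled (Psmc3ip in CD4+, Psmd1 and Psmd2 in CD8+ T cells), and on the right none is.

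Sums of proliferation markers were higher, and sums of T cell markers lower, in STAT3-/-PD-1-/- than in WT libraries of both subsets. The 15 proliferation genes summed to 4100 and 3317 CPM in WT CD4+, 4758 and 4351 in STAT3-/-, and 7033 and 6669 in STAT3-/-PD-1-/- libraries, with Mki67 the most abundant, and 13 of 15 rose in STAT3-/-PD-1-/- against WT (median log2 0.91). The CD8+ sums were 5630 and 5051 in WT, 7354 and 7030 in STAT3-/-, and 8132 and 7516 in STAT3-/-PD-1-/-, and 8 of 15 rose (median log2 0.50). Without either STAT3-/-PD-1-/- library, the CD4+ calls of Cdc20, Mcm5, and Bub1 were lost (adjusted p up to 0.0771, 0.0848, and 0.143, that of Bub1 also without WT replicate 2), as were the CD8+ calls of Bub1, Mcm5, and Tyms, which were lost without WT replicate 2 too (up to 0.0716, 0.138, and 0.0839; Tyms 0.055 in the fit of all 12 libraries). The share of all genes passing itself ran from 0.508% to 15.9% in CD4+ and from 0.903% to 15.5% in CD8+ T cells with 1 library left out, lowest without STAT3-/-PD-1-/- replicate 2 in both. In both subsets, STAT3-/-PD-1-/- libraries lay above WT in the proliferation sums and in the median of the members. STAT3-/- CD8+ libraries lay above WT in the proliferation sums and below WT in the median of the members. The 7 T cell markers summed to 4451 and 4432 CPM in WT and to 3754 and 3745 in STAT3-/-PD-1-/- CD4+ libraries, and to 4070 and 4361 and to 3240 and 3305 CPM in CD8+ libraries; 1 of 7 (Cd2) fell in CD4+ and 4 of 7 (Cd2, Cd3d, Lat, and Lck) in CD8+ T cells. The Cd2 call in CD4+ T cells was lost without any 1 of the 4 libraries compared (adjusted p up to 0.258) and by limma on log2(RPKM + 1) (0.0509). Of the CD8+ calls, that of Cd2 was lost without STAT3-/-PD-1-/- replicate 2 (up to 0.0753), and those of Cd3d, Lat, and Lck without either STAT3-/-PD-1-/- library and without WT replicate 2, or replicate 1 for Lck (up to 0.0816, 0.0852, and 0.103). The part of proliferation or of T cell content in the members' levels was not tested.

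Against STAT3-/-, the same STAT3-/-PD-1-/- libraries addressed the loss of PD-1 when STAT3 is absent. The comparison shares its STAT3-/-PD-1-/- libraries with the one against WT, and the values are given side by side without a test of their likeness. In CD4+ T cells the fitted level was higher in 34 of 35 members, with a median log2 fold change of 0.36 (all genes -0.013), which was 0.19 when STAT3-/- replicate 2 and 0.51 when replicate 1 was left out, and 26 members separated upward and 0 downward (all genes 29.6% and 29.3%). The exception was Psmd5 (log2 -0.06). Psmd1 (1.66-fold, log2 0.73, SE 0.17, adjusted p = 0.0367) and Psmc3ip rose, 2 of 35 members against 11.1% of all genes. Psmd1 lost its call without STAT3-/- replicate 2 or without either STAT3-/-PD-1-/- library, with an adjusted p of 0.0336 to 0.257 over 6 left-out libraries. Markers moved here too: 7 of 15 proliferation genes rose (median log2 0.63, 13 separated upward), with Cdc20 and Mcm5 among them losing their calls in 4 and 3 of 6 left-out fits. Of the 7 T cell markers, all were lower and 6 separated downward (sums of 4072 and 4146 CPM in STAT3-/- and 3754 and 3745 in STAT3-/-PD-1-/-), with none passing by edgeR or at an unadjusted p under 0.05; 7 of 8 macrophage genes were lower (median log2 -1.85, 3 separated downward), with none passing. The part of these in the members' values was not tested. The ATPase Psmc1 was at 94.3 and 85.5 CPM in STAT3-/- and at 123.2 and 150.5 in STAT3-/-PD-1-/- (log2 0.61, SE 0.16, adjusted p = 0.0546). Psmc1 passed with the replicate number as a block (adjusted p = 0.0199), where 10 members did, beside 26% of all genes.

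In the CD8+ subset, all 35 members were higher in STAT3-/-PD-1-/- than in STAT3-/- T cells, with a median log2 fold change of 0.32 (all genes -0.0028), and 33 were separated upward and 0 downward, against 32.5% and 30.5% of all genes. Here 4 members rose, where 16.8% of all genes passed: the alpha subunits Psma6 and Psma7, Psmd1, and the lid subunit Psmd6. Psma6 was at 167.6 and 155.1 CPM in STAT3-/- and at 214.6 and 245.0 in STAT3-/-PD-1-/-, with the WT pair between them at 185.0 and 182.0 (1.42-fold over STAT3-/-, log2 0.51, SE 0.12, adjusted p = 0.0289). Psma7 was at 152.9 and 148.6 CPM in STAT3-/- and at 202.9 and 213.3 in STAT3-/-PD-1-/- (1.38-fold, log2 0.47, SE 0.11, adjusted p = 0.0282). Both alpha subunits therefore lay below WT in both STAT3-/- libraries and above it in both STAT3-/-PD-1-/- libraries. Markers moved in this contrast as well: Cd79b (log2 -1.23, adjusted p = 0.0143), Cd68 (log2 -0.63, adjusted p = 0.0232), Cd2 (log2 -0.57, adjusted p = 0.0182), and Lck (log2 -0.36, adjusted p = 0.0432) fell, with the Cd2 call lost in 3 of 6 left-out fits (up to 0.121) and that of Lck in 4 (up to 0.209) and by limma (0.0704), and the T cell markers summed to 3666 and 4000 CPM in STAT3-/- libraries against 3240 and 3305. Of the 15 proliferation genes 0 passed by edgeR and 2 had an unadjusted p under 0.05 (median log2 0.18). The part of these in the members' values was not tested.

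Psmd1 was also higher in this comparison (log2 0.67, SE 0.16, adjusted p = 0.0308). Psmd6 was at 98.6 and 102.8 CPM in STAT3-/- and at 139.4 and 140.0 in STAT3-/-PD-1-/- CD8+ libraries, with WT spread between at 112.0 and 133.0 (log2 0.47, SE 0.12, adjusted p = 0.0423). When 1 library was left out, Psma6 lost its call in 4 of 6 fits, Psma7 and Psmd6 in 5, and Psmd1 in 3. Each of the 4 lost it without STAT3-/- replicate 2 and without either STAT3-/-PD-1-/- library, with adjusted p values up to 0.192 (Psma6), 0.191 (Psma7), 0.188 (Psmd1), and 0.176 (Psmd6). With all 12 libraries in 1 fit, 2 members passed (17.2% of all genes), of which Psmd1 was among the 4, whereas Psma6 (adjusted p = 0.0501), Psma7 (0.108), and Psmd6 (0.121) did not. By DESeq2, the 4 and 10 further members passed (14 of 35), where 23.4% of all genes did.

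**Figure D4:**
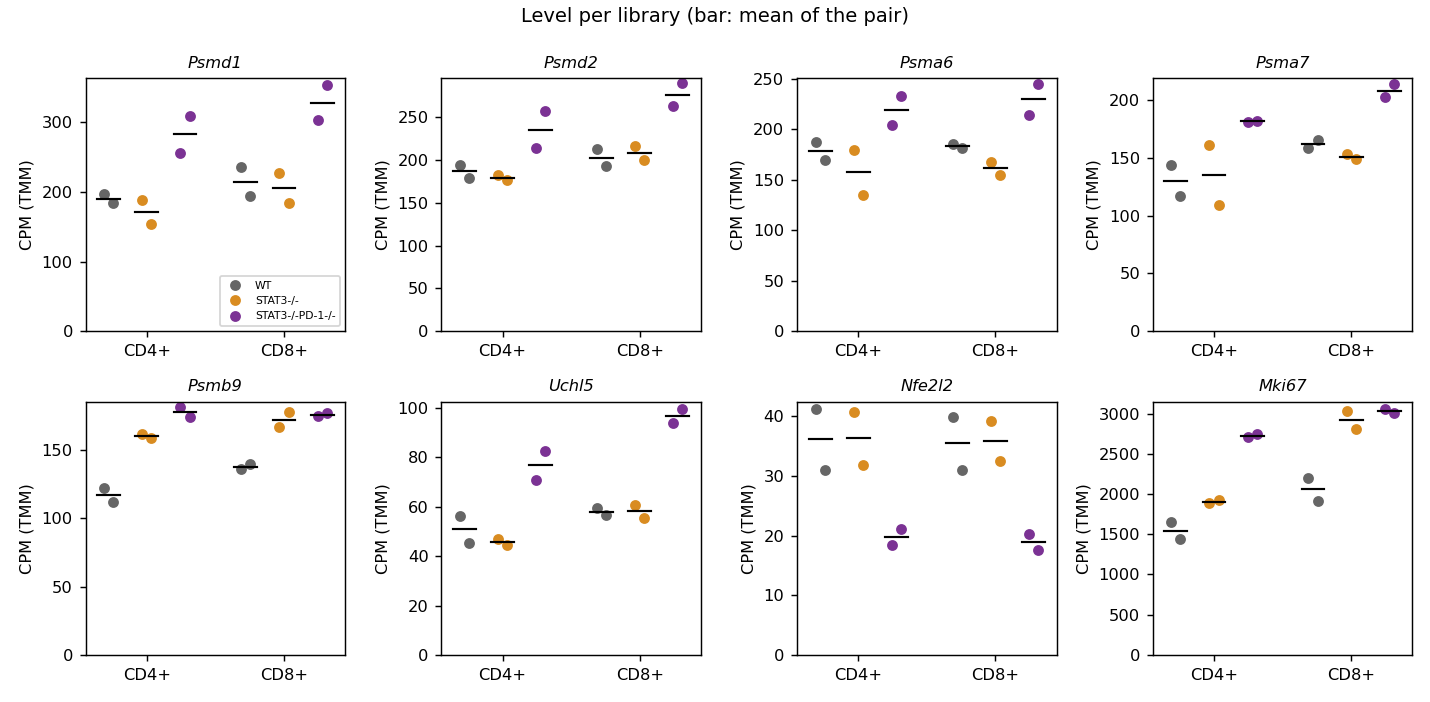
CPM in each library, with a bar at the mean of each pair, for 4 members that passed the test in CD8+ T cells (Psmd1, Psmd2, Psma6, and Psma7), for the interferon-inducible subunit Psmb9, the proteasome deubiquitinase Uchl5, the regulator Nfe2l2, and Mki67. Psmd1 in CD8+ T cells is at 303.1 and 353.0 in STAT3-/-PD-1-/- and at 235.2 or less elsewhere, and Nfe2l2 shows the opposite order.

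No member passed the threshold in STAT3-/- against WT, a contrast in which Stat3 itself did not pass either. In CD4+ T cells, 11 members were higher and 24 lower in STAT3-/- than in WT (median log2 -0.079, all genes 0.011), and 5 were separated downward and 0 upward, where 18.9% and 19.2% of all genes were. No member passed by edgeR, none had an unadjusted p under 0.05, and none passed by DESeq2 or limma, beside 0.334% of all genes by edgeR. The members with the smallest p were both assembly chaperones of the base: Psmd9 (36.0 and 33.1 CPM in WT, 29.1 and 26.1 in STAT3-/-, log2 -0.33, SE 0.17, adjusted p = 0.582) and Psmd5 (48.2 and 39.0, 62.4 and 45.1, log2 0.30, SE 0.20, adjusted p = 0.709). Without STAT3-/- replicate 1 the median of the members was -0.25, and without replicate 2 it was 0.038.

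Of the members in CD8+ T cells, 8 were higher and 27 lower in STAT3-/- than in WT (median log2 -0.11, all genes -0.0062), 17 were separated downward and 1 upward, beside 21.1% and 22.3% of all genes. Again no member passed by edgeR, DESeq2, or limma, or had an unadjusted p under 0.05, and 0.0583% of all genes passed by edgeR. The smallest p were those of Psmd6 (log2 -0.28, SE 0.12, adjusted p = 0.466) and Psmd9 (log2 -0.28, adjusted p = 0.499). Psmd9 was at 40.0 and 40.3 CPM in WT and at 34.1 and 32.0 in STAT3-/- CD8+ libraries, without overlap. The median stayed between -0.14 and -0.062 with any 1 library left out.

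The core and the regulatory genes are the main assemblies of the machine, and their medians were compared in each contrast. In STAT3-/-PD-1-/- against WT, the core median was 0.35 and the regulatory median 0.27 in CD4+ T cells, with 14 of 14 and 20 of 21 genes higher. Of these, 13 core and 15 regulatory genes were separated upward, beside 31% of all genes. In CD8+ T cells the medians were 0.20 and 0.24, with 12 of 14 and 19 of 21 genes higher. Here 6 core and 16 regulatory genes were separated upward, beside 30.8% of all genes. Within the core, the alpha median was 0.42 and the beta median 0.32 in CD4+ T cells, and 0.19 and 0.21 in CD8+ T cells. Against STAT3-/-, the core and regulatory medians were 0.35 and 0.38 in CD4+ T cells and 0.34 and 0.31 in CD8+ T cells.

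Of the 6 genotype contrasts within a subset, the medians of the classes lay farthest apart in STAT3-/- against WT in CD8+ T cells, where 14 of 14 core genes were lower than in WT with a median of -0.16, against 13 of 21 regulatory genes and a median of -0.048. In that contrast 10 core and 7 regulatory genes were separated downward and 0 and 1 upward, beside 21.1% and 22.3% of all genes. Relative to the WT mean, the core median minus the regulatory median was -0.19 and -0.042 in the STAT3-/- pair and -0.086 and 0.086 in the WT pair. The pairs overlapped, with an SD between replicates of 0.13. Taken between libraries of the same number, which no label says is shared, the difference of STAT3-/- from WT was -0.074 and -0.14. Whether the classes differed was not tested. The fitted medians differed by -0.11, and leaving out 1 WT library gave -0.22 (replicate 1) or -0.00069 (replicate 2). In CD4+ T cells the same quantity was 0.24 and -0.035 in the STAT3-/- pair. Taking the core's share of all member counts gave 38.5% and 37.8% in WT, 41.0% and 37.1% in STAT3-/-, and 39.2% and 37.9% in STAT3-/-PD-1-/- CD4+ libraries, and 38.0% and 41.5%, 37.2% and 39.3%, and 38.0% and 37.6% in CD8+ libraries, so that the ranges overlapped, except that both STAT3-/-PD-1-/- CD8+ libraries (37.96% and 37.59%) lay just below both WT libraries (37.99% and 41.48%).

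Transcript length was set beside the difference between the classes. Core genes had a median exon length of 1036 bases and regulatory genes 1564, and in all genes the median level of those 800 to 1300 bases long, minus that of those over 1300 and up to 2200 bases long, had the same sign as core minus regulatory in 7 of the 8 libraries that were not WT. The WT pairs mirror each other around their own mean and are not counted. The other libraries of a subset share that mean, so their signs are not independent. The difference by length was 0.050 in the first STAT3-/- CD4+ library, where core minus regulatory was 0.24, and -0.062 in the first STAT3-/- CD8+ library, where it was -0.19. The exception was the second STAT3-/-PD-1-/- CD8+ library, at 0.045 where core minus regulatory was -0.083. In the first STAT3-/-PD-1-/- CD8+ library the signs matched, but the difference by length was only -0.0034 where core minus regulatory was -0.062. The part of length in the difference between the classes was not tested.

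**Figure D5:**
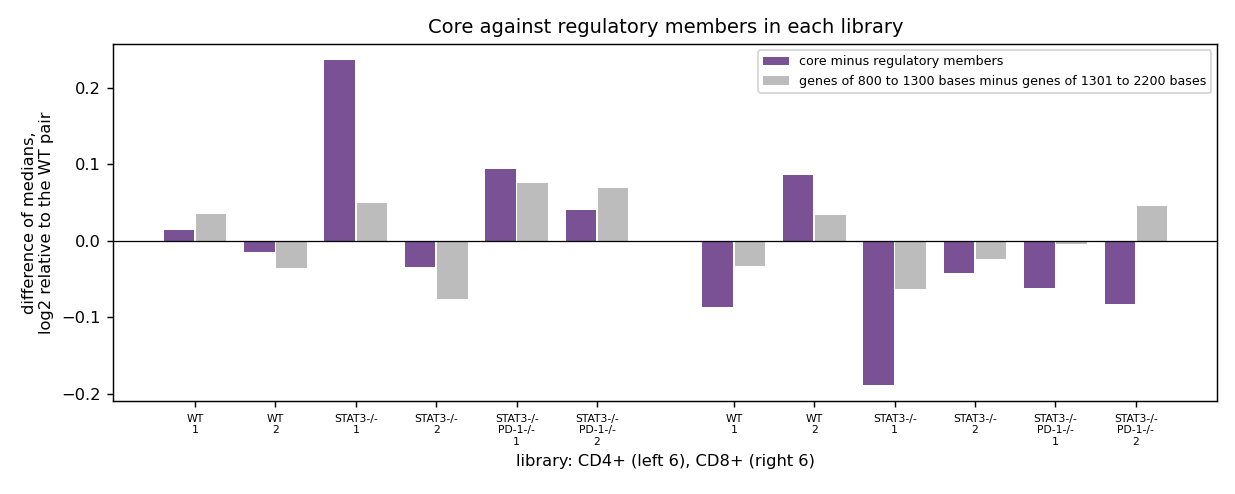
Median of core genes minus median of regulatory genes in each library (purple) and the same difference between all genes of 800 to 1300 and of over 1300 to 2200 bases (grey), relative to the WT mean on the log2 scale. Both bars have the same sign in 7 of the 8 libraries other than WT, whose pairs mirror each other around 0, and the replicates of a group differ by up to the distance from 0.24 to -0.035 in STAT3-/- CD4+ T cells. In the first STAT3-/-PD-1-/- CD8+ library, counted among the 7, the grey bar is at only -0.0034.

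Between subsets, the fitted level of most members was somewhat higher in CD8+ than in CD4+ T cells. In WT, 33 of 35 members were higher in CD8+ T cells (median log2 0.19, with 0.080 without CD4+ WT replicate 2 and 0.31 without CD4+ WT replicate 1), 18 were separated upward and 1 downward, against 25% and 23% of all genes, and Psmc3ip was the only member to pass, with 10.5% of all genes passing. In STAT3-/- T cells 30 members were higher (median 0.16, with 0.056 when CD4+ STAT3-/- replicate 2 and 0.34 when replicate 1 was left out), 15 were separated upward and 0 downward (all genes 24.9% and 22.7%), and again Psmc3ip passed, beside 9.62% of all genes. In STAT3-/-PD-1-/- T cells 33 were higher (median 0.13), 17 were separated upward and 0 downward (all genes 24.6% and 21.9%), and none passed by edgeR, DESeq2, or limma or had an unadjusted p under 0.05, beside 4.14% of all genes. Between libraries of the same number (replicates 1 and 2), 24 and 32 members were higher in CD8+ T cells of WT. The counts were 20 and 33 in STAT3-/- T cells, with a core median of -0.15 in replicate 1, and 33 and 31 in STAT3-/-PD-1-/- T cells. The proliferation genes were likewise higher in CD8+ T cells, of which 10 of 15 rose in WT T cells, 9 in T cells without STAT3, and 0 in those without both. The leading B cell and macrophage genes were higher in CD8+ T cells of all 3 genotypes, Cd79b by log2 2.86, 2.79, and 1.82 (adjusted p = 0.000123, 0.000164, and 0.00392) and Cd68 by log2 1.77, 2.10, and 0.90 (adjusted p = 8.52e-05, 4.95e-05, and 0.0099), in the order WT, STAT3-/-, and STAT3-/-PD-1-/-. The rest of these lists did not follow. Without Cd68, the macrophage sum was not higher in any CD8+ library than in the CD4+ library of the same number. In WT it was 0.98 and 10.4 CPM in CD8+ and 1.13 and 10.7 in CD4+ libraries. Cd79b made up 13.9 and 10.8 CPM of the WT CD8+ B cell sums of 14.1 and 10.9. Of the 7 T cell markers, Zap70 and Lat were lower in WT CD8+ T cells (log2 -0.45 and -0.44, adjusted p = 0.0209 and 0.0482), Zap70 in STAT3-/-, and Lat in STAT3-/-PD-1-/-. The part of these genes in the difference between subsets was not tested. With 1 block for each genotype and replicate number, since the subsets shared livers, 1, 4, and 0 members passed in the same order, beside 24.3%, 24.9%, and 14.4% of all genes; the further members in STAT3-/- were Psmc1, Psmc4, and Psmd1 (adjusted p = 0.0269, 0.0381, and 0.0445).

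Whether genotype acted differently in the subsets was examined by an interaction term, with all 12 libraries fitted together; this fit takes the subsets as independent although they shared livers. No member passed for any of the 3 genotype differences by edgeR, DESeq2, or limma, and none had an unadjusted p under 0.05; the shares of all genes passing by edgeR were 0% for STAT3-/- against WT, 0.00811% for STAT3-/-PD-1-/- against WT, and 0% for STAT3-/-PD-1-/- against STAT3-/-. With 1 block for each genotype and number no member passed either, beside 0%, 0.681%, and 0.178% of all genes. For STAT3-/-PD-1-/- against WT, the median interaction over members was -0.094 (core -0.16, regulatory 0.024). This median ran from -0.22 without CD4+ WT replicate 1 to 0.061 without CD4+ WT replicate 2, and was also above 0 without CD4+ STAT3-/-PD-1-/- replicate 2 (0.018).

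The genes taken by name that are not particle subunits went separate ways. Psmc3ip, a cofactor of meiotic recombination named for binding Psmc3, was at 4.9 and 4.8 CPM in WT CD4+, 6.6 and 4.8 in STAT3-/-, and 11.5 and 11.2 in STAT3-/-PD-1-/- libraries. It rose 2.34-fold over WT (log2 1.23, SE 0.24, adjusted p = 0.0181) and by log2 0.98 over STAT3-/- (adjusted p = 0.0399). The call over STAT3-/- was lost in the edgeR fit of the 4 libraries compared (adjusted p = 0.052). In CD8+ T cells Psmc3ip was at 9.2 and 10.4, 10.4 and 10.5, and 16.9 and 12.1 CPM (STAT3-/-PD-1-/- against WT log2 0.56, adjusted p = 0.108), and it was higher in CD8+ than in CD4+ T cells of WT (log2 1.00, adjusted p = 0.0166) and STAT3-/- donors (log2 0.84, adjusted p = 0.0365). The call against WT in CD4+ T cells was lost when either library of either group was left out (adjusted p = 0.00785 to 0.112 over 6 fits). Against STAT3-/- it was lost in 5 of 6 such fits (up to 0.216), and it held only without STAT3-/- replicate 1. For CD8+ against CD4+ T cells it was lost in 4 of 12 fits in WT (up to 0.0981) and in 6 of 12 in STAT3-/- T cells (up to 0.212).

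Psmc3ip overlaps Mlx on the other strand by 67 bases and shared 27.0% of its windows; Mlx was at 85.8 and 75.3 CPM in WT and 68.9 and 59.4 in STAT3-/-PD-1-/- CD4+ libraries. The part of the overlap and of shared sequence in the values of Psmc3ip was not tested. The base chaperones were nearer to the other members. In STAT3-/-PD-1-/- against WT, Psmd5 had log2 fold changes of 0.25 in CD4+ and 0.26 in CD8+ T cells, Psmd9 of 0.08 and -0.02, and Psmd10 of 0.18 and 0.03, and none passed.

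Some true subunits lay near 0 in STAT3-/-PD-1-/- against WT. Psmd4, the ubiquitin receptor, was at 163.6 and 156.5 CPM in WT and at 145.4 and 162.5 in STAT3-/-PD-1-/- CD4+ libraries, and at 150.5 and 155.7 and at 145.8 and 157.5 in CD8+ libraries, with overlapping pairs in both subsets. Psmd8, a lid subunit, was at 268.6 and 226.9 and at 236.3 and 267.0 CPM in CD4+ libraries, and at 275.7 and 276.0 and at 272.8 and 294.0 in CD8+ libraries. Psmb1, a structural beta subunit, had log2 fold changes of 0.05 and -0.10. These 3 were picked after their values were seen, and their difference from the other members was not tested.

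The cutting subunits lay near the core medians. Psmb5, the chymotrypsin-like subunit, was at 18.6 and 16.6 CPM in WT CD4+, 17.1 and 15.3 in STAT3-/-, and 19.9 and 26.6 in STAT3-/-PD-1-/- libraries (log2 0.40 against WT, SE 0.20, adjusted p = 0.248). Psmb6, the caspase-like subunit, was at 80.3 and 68.9, 79.4 and 62.8, and 97.1 and 108.5 CPM (log2 0.46, adjusted p = 0.129). Psmb7, the trypsin-like subunit, was at 126.2 and 99.4, 141.1 and 83.8, and 147.7 and 146.2 CPM (log2 0.38, adjusted p = 0.365). All 3 had STAT3-/-PD-1-/- libraries above both WT libraries in CD4+ T cells, and in CD8+ T cells their log2 fold changes were 0.21, 0.28, and 0.22, with no call.

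The interferon-inducible counterparts, which the rule left out, are given beside the members; their difference from the members was not tested. Psmb8 was at 397.8 and 404.0 CPM in WT CD4+, 429.8 and 440.6 in STAT3-/-, and 482.9 and 524.5 in STAT3-/-PD-1-/- libraries (log2 0.33 against WT, adjusted p = 0.142), and at 407.3 and 424.1, 417.8 and 436.4, and 465.2 and 510.9 CPM in CD8+ libraries (log2 0.23, adjusted p = 0.159). In both subsets the STAT3-/-PD-1-/- pair was the highest for Psmb8. Psmb9 was at 121.8 and 111.5, 161.6 and 158.8, and 181.3 and 173.8 CPM, already higher in both STAT3-/- libraries than in WT (log2 0.46, adjusted p = 0.271), and it rose in STAT3-/-PD-1-/- against WT (1.52-fold, log2 0.61, SE 0.14, adjusted p = 0.0294). The Psmb9 call was lost without either library of either group (adjusted p = 0.032 to 0.186). For CD8+ libraries, Psmb9 was at 135.8 and 139.5, 166.4 and 177.3, and 174.5 and 176.9 CPM (log2 0.35 against WT, adjusted p = 0.0607; it passed by DESeq2, by limma on log2(RPKM + 1), and in the fit of all 12 libraries, with adjusted p values of 0.0151, 0.047, and 0.0497). Psmb10 was at 119.5 and 111.7, 124.1 and 121.4, and 116.1 and 131.0 CPM in CD4+ libraries and at 127.9 and 136.6, 127.6 and 128.5, and 102.9 and 118.5 in CD8+ libraries, where the STAT3-/-PD-1-/- pair was the lowest (log2 -0.26 against WT, adjusted p = 0.178). The STAT3-/- to STAT3-/-PD-1-/- step of Psmb9 was log2 0.15 in CD4+ and 0.03 in CD8+ T cells, beside medians of 0.36 and 0.32 over the members.

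Other genes of the pathway were read from lists of assembly factors, activators, ubiquitin handling, and regulators. Of 5 core assembly factors, 0 passed in STAT3-/-PD-1-/- against WT in CD4+ T cells by edgeR, 0 with an unadjusted p under 0.05 (median log2 0.33, all 5 higher), and 1 rose in CD8+ T cells. This was Psmg1, a chaperone of the alpha ring, at 16.6 and 13.6 CPM in WT and 22.5 and 23.3 in STAT3-/-PD-1-/- (log2 0.60, SE 0.16, adjusted p = 0.0442, and 0.0653 to 0.241 with any 1 of 6 libraries left out). Psmg1 also rose against STAT3-/- (log2 0.63, adjusted p = 0.0396, and up to 0.18 without 1 of the 4 libraries compared). Of the 5 activators and inhibitors (Psme1, Psme2, Psme3, Psme4, and Psmf1) none passed in either subset, and none had an unadjusted p under 0.05 against WT (medians 0.10 and 0.024). Of the 6 ubiquitin and E1 genes none passed, and 2 had an unadjusted p under 0.05 against WT in each subset (medians 0.12 and 0.11).

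Among genes of deubiquitination and substrate delivery, Uchl5, a deubiquitinase that docks on the regulatory particle, was at 56.3 and 45.3 CPM in WT CD4+, 47.1 and 44.4 in STAT3-/-, and 70.8 and 82.8 in STAT3-/-PD-1-/- libraries, and at 59.5 and 56.6, 60.9 and 55.5, and 94.0 and 99.6 CPM in CD8+ libraries. It rose against STAT3-/- in both subsets (log2 0.75, adjusted p = 0.0359 in CD4+; log2 0.73, adjusted p = 0.0105 in CD8+) and against WT in CD8+ T cells (1.67-fold, log2 0.74, SE 0.12, adjusted p = 0.00951). The CD8+ calls of Uchl5 were lost without replicate 2 of either group compared (adjusted p up to 0.072 against WT and 0.0831 against STAT3-/-), and the CD4+ call without any 1 of the 4 libraries compared (up to 0.246). The shuttle receptor Ubqln4 also rose against WT in CD8+ T cells (log2 0.76, adjusted p = 0.0107), and lost its call without replicate 2 of either group (adjusted p up to 0.072). The median of this list of 7 genes was 0.46 in CD8+ T cells. In CD4+ T cells none of the 7 passed by edgeR, 4 had an unadjusted p under 0.05, and the median was 0.45.

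Of the 4 regulators of proteasome genes, Nfe2l2 fell. It encodes NRF2, a stress-responsive transcription factor, and was at 41.2 and 31.1 CPM in WT CD4+, 40.7 and 31.9 in STAT3-/-, and 18.5 and 21.1 in STAT3-/-PD-1-/- libraries, with no overlap of the last pair. In CD8+ libraries it was at 39.8 and 31.1, 39.2 and 32.5, and 20.3 and 17.6 CPM. Against WT, Nfe2l2 decreased by 0.87 (SE 0.21, adjusted p = 0.0361) and 0.90 (SE 0.18, adjusted p = 0.0179) on the log2 scale in CD4+ and CD8+ T cells. Both Nfe2l2 calls were lost without WT replicate 1 or either STAT3-/-PD-1-/- library, with an adjusted p of up to 0.187 and 0.118, and the CD4+ call also by limma on log2(RPKM + 1) (adjusted p = 0.0532). Nfe2l1, which encodes NRF1, the factor known to restore proteasome transcription when the proteasome is inhibited, had log2 changes of -0.05 (adjusted p = 0.862) and 0.03 (adjusted p = 0.883). Ngly1, the enzyme that removes glycans from NRF1, was at 198.2 and 212.6 CPM in STAT3-/- and 137.3 and 113.3 in STAT3-/-PD-1-/- CD8+ libraries and fell between them (log2 -0.71, SE 0.14, adjusted p = 0.0177, and up to 0.108 without replicate 2 of either group).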

How the data were processed

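The authors aligned 51-base single-end reads to mm10 with STAR and assigned them to RefSeq genes by HTSeq-count; the deposited tables hold these raw counts and, beside them, RPKM values. The labels also carry a protocol for another cell type and another library kit than the supplemental methods, and these fields were not used. The 12 libraries were grouped by genotype and subset from their labels. The 35 members and the gene lists were chosen with earlier results of these data known.

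From the counts, genes were filtered by edgeR's filterByExpr (minimum count 10), scaled by TMM, and tested by quasi-likelihood (edgeR 4.0.16, R 4.3.3) in a fit of the 6 libraries of a subset, with Benjamini-Hochberg adjustment over 11959 (CD4+) or 12002 (CD8+) genes and a threshold of 0.05. Subset differences and interactions came from all 12 libraries (12334 genes). The residual degrees of freedom were 3, 3, and 6. CD4+ and CD8+ libraries of a genotype came from the same livers, per the study's supplement, and those of the same number correlated in their deviations at 0.629 (WT), 0.625 (STAT3-/-), and 0.75 (STAT3-/-PD-1-/-), so a fit with 6 such blocks (3 residual degrees of freedom) was added after the data were seen. DESeq2 1.42.0 and limma 3.58.1, on log2(RPKM + 1), served as alternatives. On simulated data for STAT3-/-PD-1-/- against WT, 3 of 100 genes changed by log2 0.5 were recovered in each subset, and 40 (CD4+) and 50 (CD8+) of 100 changed by log2 1. The changed genes were drawn at random from all genes tested, so these shares do not give the recovery at the levels of the members. Named genes were Stat3 and Pdcd1, the cutting subunits, called members (or the 2 with the smallest p), genes that are not particle subunits, and up to 3 called genes of each further list. Promoters were taken from RefSeq (GRCm38.p6) and 51-base windows from GENCODE transcripts. Figures were drawn with matplotlib 3.10.9. A gene of the deubiquitination and delivery list is not reported here by name.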

Additional observations from a re-analysis of the deposited data

How the results depend on the processing

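The number of members passing moved with the fit, whereas the direction of their medians in STAT3-/-PD-1-/- T cells did not. Against WT in CD4+ T cells (1 member), DESeq2, the fit of all 12 libraries, and the fit of the 4 libraries compared each gave 2, and true subunits alone gave 0. Against STAT3-/- in CD4+ T cells (2 members) these gave 4, 5, 1, and 1. In CD8+ T cells DESeq2 gave 4 against WT (2 members) and 14 against STAT3-/- (4 members), the 4-library fit gave 1 against WT, and the 12-library fit 2 against STAT3-/-. DESeq2 called 18.1% and 17.6% of all genes in CD4+ T cells and 22.7% and 23.4% in CD8+ T cells, the 12-library fit 20% and 18.6% and 17.8% and 17.2%, and the 4-library fit 16.5% and 10.5% and 16.5% and 16.1%, against WT and STAT3-/-. True subunits alone gave 0 for CD8+ against CD4+ in WT and STAT3-/-, and a core minus regulatory median of 0.034 for STAT3-/-PD-1-/- against WT in CD4+ T cells (0.078 with all members). The cause was not tested. Same-numbered libraries correlated in their deviations at 0.046 to 0.73 within a subset, over 0.1 in all 3 pairs of CD4+ groups and in 2 of 3 of CD8+ groups; no label says what the number stands for. With the replicate number as a block, 4 and 10 members passed in CD4+ T cells and 5 and 14 in CD8+ T cells, against WT and STAT3-/-, beside 26% and 26% and 24.7% and 24.4% of all genes; against WT, Psmd1 in CD4+ (adjusted p = 0.0252) and Psmb9 in CD8+ T cells (0.0369) passed too. A block for each genotype and number, added after the data were seen, gave 4 members for CD8+ against CD4+ in STAT3-/- (1 member) and changed no other count for the subsets or the interaction.

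With 1 library left out, all calls of members were lost in some fits of STAT3-/-PD-1-/- against WT and STAT3-/- in both subsets. The same held for CD8+ against CD4+ in WT and STAT3-/-. Fewer of all genes passed in those fits than with all libraries. The medians of members ran from 0.20 to 0.41 and 0.19 to 0.51 in CD4+ T cells and from 0.17 to 0.26 and 0.29 to 0.32 in CD8+ T cells, in the same order, and in STAT3-/- against WT from -0.25 to 0.038 and -0.14 to -0.062. For core minus regulatory the ranges were 0.035 to 0.11 and -0.18 to 0.10 (CD4+), -0.21 to 0.00019 and -0.085 to 0.15 (CD8+), and, in STAT3-/- against WT, -0.037 to 0.23 in CD4+ and -0.22 to -0.00069 in CD8+ T cells. For CD8+ against CD4+, the median was 0.080 to 0.31 in WT, 0.056 to 0.34 in STAT3-/-, and 0.081 to 0.17 in STAT3-/-PD-1-/-, and core minus regulatory 0.024 to 0.21 in WT, -0.22 to 0.040 in STAT3-/-, and -0.090 to 0.0015 in STAT3-/-PD-1-/-. For the interaction, the median was -0.22 to 0.061 (STAT3-/-PD-1-/- against WT), -0.22 to 0.089 (against STAT3-/-), and -0.15 to 0.13 (STAT3-/- against WT), and core minus regulatory -0.24 to -0.046, -0.070 to 0.195, and -0.34 to -0.047.
Single genes without a call changed sign: with 1 library left out, in STAT3-/- against WT, Psmb6 ran from -0.25 to 0.093 and Psmb7 from -0.43 to 0.32 in CD4+ T cells, and Psmc3ip from -0.00080 to 0.17 and Psmd1 from -0.23 to 0.086 in CD8+ T cells. Against STAT3-/-, Psmb10 in CD4+ T cells ran from -0.082 to 0.092, with -0.0090 in the 12-library fit and -0.0020 with all genes counted at least once, and Psmb9 in CD8+ T cells from -0.015 to 0.072. In simulated data for STAT3-/-PD-1-/- against WT, 3 of 100 genes changed by log2 0.5 were recovered in each subset. Those genes were drawn at random from all genes tested, so this share does not give the recovery at the levels of the members.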
